A study of Mus musculus with 6 samples.

Results

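The genes described here are the aminoacyl-tRNA synthetase genes and the transcription factor gene Atf4 with a set of its regulators and targets, in a mouse model of T-cell acute leukaemia (T-ALL). They were chosen by name: every gene symbol of the form that synthetase genes carry, plus 14 listed symbols of the ATF4 pathway. Earlier results of these data were known when the choice was made. The deposited table has 13185 gene rows, and 49 of them were members: 20 genes for cytosolic synthetases, 17 for mitochondrial synthetases and 12 for ATF4 and its targets. Chac1 and Pycr1, also listed, were not analysed here. The study compared 3 libraries of Notch1-driven T-ALL cells given 25 nM panobinostat, an inhibitor of histone deacetylases, for 2 h with 3 libraries of cells of the same kind left untreated. All cells were grown with immobilised anti-CD3 at 2.5 ug/mL and with IL-2 at 100 U/mL, so T cell receptor stimulation was common to all libraries. The labels do not say which mice or clones the cells came from, or whether libraries of a group were separate cultures, so p-values measure only the spread between these libraries, which may be technical. RNA was read with a 3' mRNA kit, which yields reads from the polyadenylated ends of transcripts, and values are log2 CPM (counts scaled to 1000000 reads per library).

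Aminoacyl-tRNA synthetases join each amino acid to its tRNA. Most amino acids have separate enzymes for the cytosol and for mitochondria, both encoded in the nucleus, and the mitochondrial ones carry a 2 at the end of the symbol. Glycyl- and lysyl-tRNA synthetases (Gars, Kars) make forms for both compartments from 1 gene and are counted here as cytosolic, and mitochondrial glutaminyl-tRNA is made from a glutamate-charged precursor. ATF4 is a bZIP factor whose mRNA is translated preferentially when the initiation factor eIF2 is phosphorylated, in the integrated stress response. With C/EBP partners it binds a composite element in genes for amino acid synthesis, amino acid uptake and tRNA charging. Its output therefore depends on translation as well as on the level of its mRNA, and only mRNA was measured in these libraries.

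The core of the composite element, TGATGNAA, was searched on both strands of RefSeq promoters (build GRCm38.p6, 250 bases before to 50 bases after each gene's start). Of the 49 members 38 had a promoter in the table and 6 of these held the core, or 15.8%, against 4.51% of all 27025 genes in the table and 2.63% of the tested genes with a promoter. Among them were 5 of 12 cytosolic synthetase genes, 0 of 14 mitochondrial ones, and Asns. The windows below are shown because they set the cytosolic genes with this element side by side. Capitals mark the match, each window is written 5′ to 3′ on the strand that reads the core in this direction, and the positions are chr15:11399656-11399683 for Tars (plus strand), chr13:49682127-49682154 for Iars (minus), chr8:111033841-111033868 for Aars (minus), chr4:129189896-129189923 for Yars (plus), chr6:55037961-55037988 for Gars (minus) and chr6:7693215-7693242 for Asns (minus).
Tars: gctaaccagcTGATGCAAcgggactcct
Iars: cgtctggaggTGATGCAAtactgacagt
Aars: cagagcgctcTGATGAAAagtgacccgc
Yars: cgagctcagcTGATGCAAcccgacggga
Gars: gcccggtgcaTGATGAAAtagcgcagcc
Asns: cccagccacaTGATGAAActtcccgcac

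Tars was the only gene of these 6 that passed the test described next. Its promoter, chr15:11399609-11399908 (minus strand, RefSeq, GRCm38.p6), is printed in the direction of transcription, with the element in capitals on the strand opposite to the windows.
Tars promoter: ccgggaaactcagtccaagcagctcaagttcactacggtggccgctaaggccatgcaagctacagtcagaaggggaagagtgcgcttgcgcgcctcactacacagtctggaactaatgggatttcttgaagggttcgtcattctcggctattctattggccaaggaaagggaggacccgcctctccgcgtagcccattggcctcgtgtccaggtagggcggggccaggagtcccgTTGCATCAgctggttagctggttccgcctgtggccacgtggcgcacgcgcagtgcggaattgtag
With the exact core TGATGCAA 4 members matched, Tars, Iars and Yars among them, or 10.5% of those with a promoter, against 1.03% of all genes in the table. A match of letters is a description and no proof of binding, and its absence from this window says nothing of the factor. Promoters of Cars, Hars, Hars2, Lars, Mars, Nars, Pars2, Rars, Vars and Wars were not in the table.

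Facts of the series that touch these genes are as follows. From the steps between tied low values, libraries held between 5990000 and 7720000 reads, so that 1 CPM stood for 5.99 to 7.72 reads. On the first principal component (54.7% of variance) untreated library 1 was at 25.7 and the other untreated libraries were at 41.0 and 48.0. Treated libraries were at -43.2 to -35.4. Untreated library 1 was thus the nearest of its group to the treated libraries, though closer still to its own group. Of 12554 genes tested 38.3% passed limma's test (Benjamini-Hochberg adjusted p below 0.05), 19.2% upward and 19.0% downward, and the groups did not overlap in 51.4% of genes, 25.7% with treated libraries higher and 25.7% with them lower. All 14 T cell markers were measured and summed to 1904 to 1955 CPM in treated and 2424 to 2477 CPM in untreated libraries. Notch1 alone rose (log2 fold change 0.34, limma adjusted p = 0.0272) and 7 fell, Lck, Cd5, Cd3d and Cd3e among them. Log2 fold changes were positive for 5 of the 14 and negative for 9. Whether the Notch1 call held with single libraries left out is not given here. Markers of other cells were present as well: 8 erythroid and platelet genes, globins among them, summed to 6302 to 6707 CPM in treated and 6691 to 7948 CPM in untreated libraries (Hbb-bs rose, and Hba-a1, Hba-a2 and Alas2 fell), and 10 of 11 myeloid genes to 1063 to 1161 and 1303 to 1483 CPM (0 rose, and Lyz2, Mpo, S100a8 and Csf1r fell). B cell markers (6 of 7 measured) summed to 55.2 to 57.0 and 64.0 to 74.4 CPM (0 rose and 2 fell, Cd79b among them), and of 7 stromal and endothelial markers Pecam1 alone was measured, at 59.4 to 79.2 and 88.5 to 122.6 CPM, and fell. The calls of Csf1r, Hbb-bs, Hba-a1, Hba-a2, Alas2 and Pecam1 were each lost with at least 1 single library left out. The part of these markers in the results below was not tested. In such bulk libraries fewer cells of a type and less RNA per cell cannot be told apart.

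Across the 49 members, all of which passed the filter on low values, 6 rose and 11 fell. That is 34.7% called, close to the 38.3% of all tested genes. By class, mitochondrial synthetase genes gave 1 rise and 7 falls of 17, cytosolic ones 3 rises and 1 fall of 20, and ATF4 with its targets 2 rises and 3 falls of 12. Their median log2 fold changes were -0.431, -0.076 and -0.106, beside -0.005 over all tested genes. Rose and fell are used below only for genes past limma's threshold, and the number that follows ± is the standard error of the fold change.

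Among the transcription factor genes, Atf4 and its relative Atf5 fell. Atf4 stood at 7.98, 8.03 and 7.81 log2 CPM in treated libraries 1 to 3 and at 8.18, 8.60 and 8.47 log2 CPM in untreated libraries 1 to 3. Every treated library lay below every untreated one, with untreated library 1 the closest to the treated values (log2 fold change -0.47 ± 0.12, limma adjusted p = 0.016). This call was lost without treated library 3 (-0.41, adjusted p = 0.0626) or untreated library 3 (-0.45, adjusted p = 0.0574). Atf5 encodes a bZIP factor that is itself translated under stress and is a known ATF4 target. Its level was 3.49, 4.0 and 3.46 log2 CPM with panobinostat and 4.53, 5.22 and 5.19 log2 CPM without. The groups were well apart (log2 fold change -1.33 ± 0.23, limma adjusted p = 0.00382), and the call held whichever library was left out.

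The partners and the effector factor gave no call. Ddit3, which encodes the pro-apoptotic factor CHOP and is among the best known ATF4 targets, stood at 5.51, 5.62 and 5.55 log2 CPM in treated and 5.41, 5.70 and 5.74 log2 CPM in untreated libraries. The groups overlapped, and the difference was near zero (log2 fold change -0.06 ± 0.11, limma adjusted p = 0.698). Cebpg, a C/EBP partner of ATF4 on its element, was at 0.0024 ± 0.09 on the log2 fold change scale (adjusted p = 0.986). Cebpb, another partner, stood at 3.03, 2.75 and 1.42 log2 CPM in treated and 3.33, 3.47 and 3.38 log2 CPM in untreated libraries. All treated values were lower, but treated library 3 was far below the other two, and the difference did not pass (log2 fold change -0.996 ± 0.39, limma adjusted p = 0.0761). It passed without treated library 1 (-1.31, adjusted p = 0.039).

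**Figure D1:**
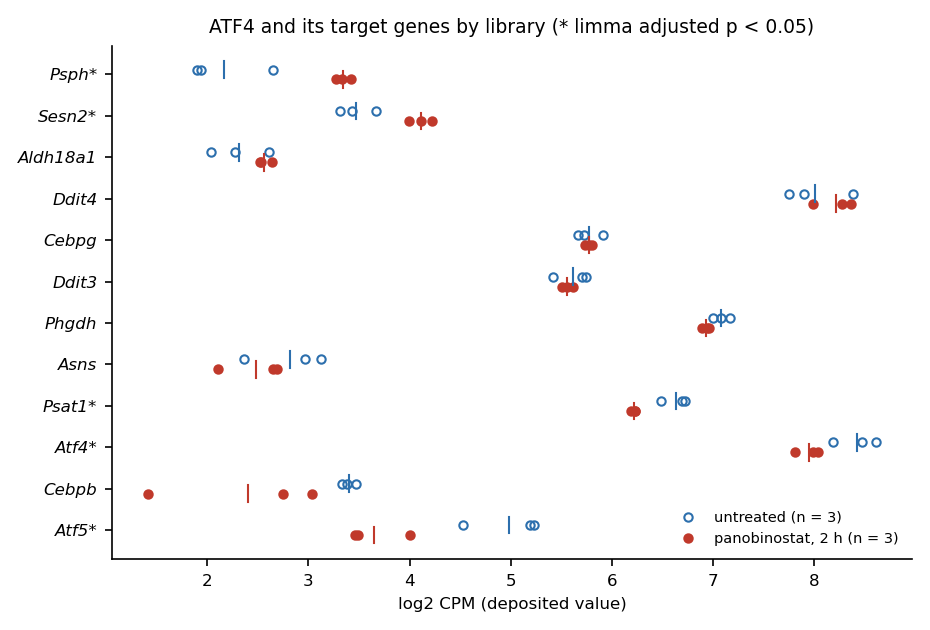
Deposited log2 CPM of ATF4 and 11 targets or partners in each library (x axis), genes in rows ordered by log2 fold change; filled points are panobinostat libraries, open points untreated ones, short vertical lines the means of 3. Psph and Sesn2 sit higher with panobinostat and Atf4, Atf5, Psat1, Phgdh and Cebpb lower, with no overlap. Of these, Phgdh and Cebpb did not pass limma's threshold. Ddit3, Asns, Cebpg, Ddit4 and Aldh18a1 overlap. The groups did not overlap in 51.4% of all tested genes.

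Of the genes for the 3 enzymes that make serine from a glycolytic intermediate, 1 rose, 1 fell and 1 did not pass. Phgdh, the first and committed step, stood at 6.94, 6.95 and 6.89 log2 CPM in treated and 7.07, 7.0 and 7.17 log2 CPM in untreated libraries, a difference that did not pass (log2 fold change -0.15 ± 0.08, limma adjusted p = 0.152). Psat1, the transaminase of the second step, fell, from 6.48, 6.72 and 6.69 log2 CPM to 6.23, 6.23 and 6.18 log2 CPM (log2 fold change -0.42 ± 0.09, limma adjusted p = 0.00869). Psph, the phosphatase that releases serine, rose from 2.65, 1.9 and 1.94 log2 CPM to 3.27, 3.33 and 3.42 log2 CPM (log2 fold change 1.18 ± 0.23, limma adjusted p = 0.00656). It was the largest rise among the 49 members, and it rests on an estimated 25 to 48 reads per untreated and 58 to 81 per treated library.

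The remaining targets were mixed. Asns, asparagine synthetase, whose promoter holds the element, stood at 2.69, 2.65 and 2.11 log2 CPM in treated and 2.36, 3.13 and 2.97 log2 CPM in untreated libraries, with overlapping groups (log2 fold change -0.34 ± 0.26, limma adjusted p = 0.346). Sesn2 encodes a leucine-binding inhibitor of mTORC1 signalling. It rose from 3.31, 3.67 and 3.43 log2 CPM to 4.22, 4.11 and 3.99 log2 CPM (log2 fold change 0.64 ± 0.14, limma adjusted p = 0.011). Ddit4, which encodes the mTORC1 inhibitor REDD1, stood at 7.99, 8.36 and 8.28 log2 CPM in treated and 8.38, 7.74 and 7.90 log2 CPM in untreated libraries. Untreated library 1 was the highest of all for this gene, the difference did not pass (log2 fold change 0.20 ± 0.17, limma adjusted p = 0.384), and without that library it did (0.39, adjusted p = 0.036). Aldh18a1, the first enzyme of proline synthesis from glutamate, was at 0.25 ± 0.20 (adjusted p = 0.358).

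Most cytosolic synthetase genes did not pass, and 3 of those that did rose. Of the 20 genes 16 were not called, and all log2 fold changes lay between -0.372 and 0.743. Among the 5623 tested genes whose mean level fell in the same range (4.31 to 8.62 log2 CPM) 47.2% were called, 23.9% upward and 23.3% downward. Wars, the tryptophanyl-tRNA synthetase gene, which is also induced by interferon, stood at 4.53, 4.65 and 4.84 log2 CPM in treated and 4.02, 4.05 and 3.74 log2 CPM in untreated libraries (log2 fold change 0.74 ± 0.14, limma adjusted p = 0.00535). Tars, for threonine, rose from 6.69, 6.27 and 6.25 log2 CPM to 7.09, 7.03 and 7.31 log2 CPM (log2 fold change 0.74 ± 0.14, limma adjusted p = 0.00517). Rars, for arginine, rose from 7.22, 7.23 and 7.08 log2 CPM to 7.62, 7.58 and 7.59 log2 CPM (log2 fold change 0.42 ± 0.07, limma adjusted p = 0.00403). The groups did not overlap in any of these 3 genes, and each call held whichever library was left out.

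Dars, for aspartate, was the single cytosolic gene that fell. It stood at 5.2, 5.07 and 5.10 log2 CPM in treated and 5.61, 5.45 and 5.43 log2 CPM in untreated libraries (log2 fold change -0.37 ± 0.10, limma adjusted p = 0.0188). The call was lost without treated library 2 (-0.35, adjusted p = 0.0657) or 3 (-0.36, adjusted p = 0.0677). Lars, for leucine, stood at 7.39, 7.26 and 7.41 log2 CPM in treated and 7.21, 6.41 and 6.88 log2 CPM in untreated libraries, and its difference just missed the threshold (log2 fold change 0.52 ± 0.18, limma adjusted p = 0.0544). Untreated library 1 lay closest to the treated values, and without it Lars passed (0.71, adjusted p = 0.00624), as did 3 genes on the low side: Farsa (-0.26, adjusted p = 0.0106), Gars (-0.25, adjusted p = 0.0244) and Hars (-0.29, adjusted p = 0.0409). With this library left out the 20 cytosolic genes therefore gave 4 rises and 4 falls. That fit called 2664 of the 12554 tested genes upward and 2562 downward, against 2416 and 2390 with all libraries. Iars, for isoleucine, did not overlap between groups and did not pass (0.26 ± 0.10, adjusted p = 0.0683).

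The other cytosolic genes gave no call in the fit of all libraries. Log2 fold changes were -0.21 for Cars (cysteine), -0.17 for Farsa and -0.04 for Farsb (the 2 subunits of the phenylalanine enzyme), -0.17 for Gars (glycine) and -0.17 for Hars (histidine). They were -0.14 for Vars (valine), -0.14 for Eprs, the fused enzyme for glutamate and proline, -0.13 for Yars (tyrosine), -0.12 for Aars (alanine), -0.08 for Mars (methionine) and -0.07 for Sars (serine). Those of Kars (lysine), Nars (asparagine) and Qars (glutamine) were 0.02, 0.03 and 0.10. Mars and Ddit3 are neighbours on chromosome 10 (GENCODE M21, build mm10) whose 3' ends run into each other and share 68 bases (Mars 127296221 to 127311786, minus strand; Ddit3 127290774 to 127296288, plus strand). The strand setting of the counting is not given in the sources used here, so reads over that stretch cannot be told apart, and neither gene passed.

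**Figure D2:**
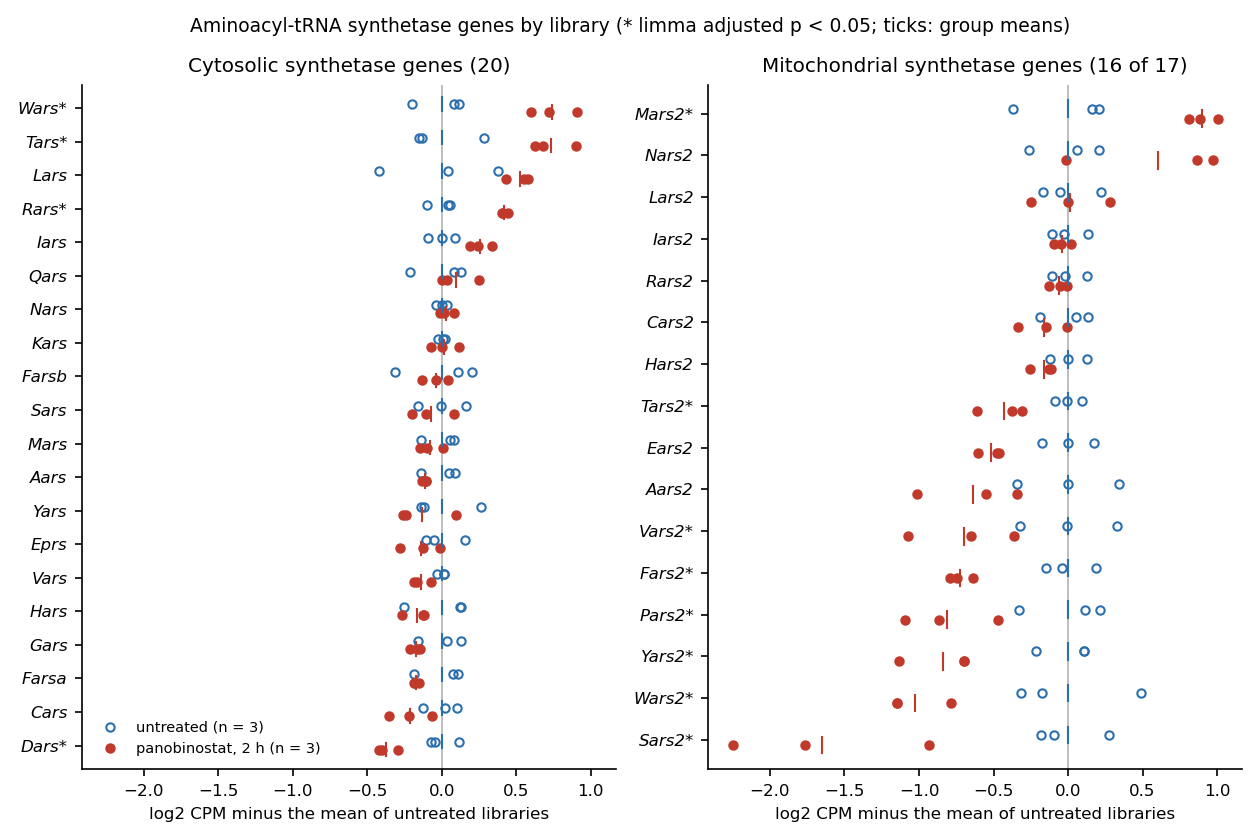
Cytosolic (left, 20) and mitochondrial (right, 16 of 17) synthetase genes by library, as log2 CPM minus the mean of the 3 untreated libraries of each gene (x axis); filled points are panobinostat libraries, open points untreated ones, vertical lines group means, asterisks limma adjusted p below 0.05. Treated points of most cytosolic genes lie near zero, whereas 7 mitochondrial genes with an asterisk lie to the left and Mars2 to the right.

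Mitochondrial synthetase genes mostly lay lower with panobinostat. Of the 17 genes 13 had a negative log2 fold change, 7 fell and 1 rose, so that 41.2% were called downward, beside 20.2% of the 7570 tested genes within the same range of mean level (1.5 to 5.75 log2 CPM) and 19.0% of all tested genes. This difference in share depended on the threshold: at 0.01, 2 of the 17 fell, beside 1273 of the 12554 tested genes. In 8 of the 17 genes every treated library was below every untreated one, as in 25.7% of all tested genes and in 2051 of the 7570 within this range of level. Sars2, for serine, showed the largest fall, from 3.09, 3.46 and 3.0 log2 CPM to 2.25, 0.93 and 1.42 log2 CPM (log2 fold change -1.65 ± 0.34, limma adjusted p = 0.0076). These values stand for an estimated 52 to 74 reads in untreated and 13 to 28 reads in treated libraries. Fars2, for phenylalanine, was better covered, at 143 to 201 estimated reads in treated and 264 to 316 in untreated libraries. It fell from 5.22, 5.56 and 5.33 log2 CPM to 4.57, 4.62 and 4.73 log2 CPM, with the smallest adjusted p of the class (log2 fold change -0.73 ± 0.12, limma adjusted p = 0.00299). An annotated gene on the opposite strand, Nrn1, lies over the 3' end of Fars2, and another, Gm20483, over that of Vars2. Neither Nrn1 nor Gm20483 was among the tested genes. With the strand setting of the counting not given, reads over these stretches cannot be told apart.

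Yars2, for tyrosine, fell from 3.17, 3.49 and 3.49 log2 CPM to 2.69, 2.69 and 2.25 log2 CPM (log2 fold change -0.84 ± 0.19, limma adjusted p = 0.0115). The calls of Sars2, Fars2 and Yars2 held whichever library was left out. The other 4 falls did not. Wars2, for tryptophan, was the least covered of the 7, with 13 to 15 estimated reads in treated libraries, at 1.30, 0.93 and 0.93 log2 CPM in treated and 1.9, 2.57 and 1.77 log2 CPM in untreated libraries (log2 fold change -1.03 ± 0.29, limma adjusted p = 0.0263). Its call was lost without treated library 2 (-0.97) or 3 (-0.97) or untreated library 2 (-0.78). Pars2, for proline, stood at 2.04, 1.41 and 1.64 log2 CPM in treated and 2.17, 2.72 and 2.61 log2 CPM in untreated libraries (log2 fold change -0.81 ± 0.25, limma adjusted p = 0.0378). Treated library 1 and untreated library 1 came close to each other in this gene, and the call was lost without treated library 2 (-0.67) or 3 (-0.78) or untreated library 2 (-0.70) or 3 (-0.75).

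Vars2, for valine, was at 4.07, 4.36 and 3.65 log2 CPM in treated and 4.40, 5.06 and 4.71 log2 CPM in untreated libraries (log2 fold change -0.70 ± 0.22, limma adjusted p = 0.0409). The highest treated and lowest untreated values nearly touched, and the call was lost without treated library 1 (-0.72) or 3 (-0.51) or untreated library 2 (-0.53) or 3 (-0.70). Tars2, for threonine, stood at 3.54, 3.78 and 3.84 log2 CPM in treated and 4.24, 4.14 and 4.06 log2 CPM in untreated libraries (log2 fold change -0.43 ± 0.13, limma adjusted p = 0.0354). Its call was lost with any 1 library left out (-0.49 to -0.34). Leaving out single libraries gave between 3 and 7 mitochondrial falls: 5 without treated library 1, 4 without treated library 2, 3 without treated library 3, 7 without untreated library 1, 3 without untreated library 2 and 4 without untreated library 3. In the same order, these fits called 1926, 1843, 1708, 2562, 1860 and 1636 of the 12554 tested genes downward, against 2390 with all libraries.

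Mars2, the methionine enzyme of mitochondria, was the exception among the called genes. It rose from 2.97, 2.93 and 2.40 log2 CPM to 3.58, 3.65 and 3.77 log2 CPM (log2 fold change 0.90 ± 0.19, limma adjusted p = 0.00866). All treated libraries lay higher, and the call held whichever library was left out. Nars2, for asparagine, leaned the same way, at 1.18, 2.16 and 2.06 log2 CPM in treated and 1.40, 1.25 and 0.93 log2 CPM in untreated libraries. Treated library 1 lay among the untreated values, the difference did not pass (log2 fold change 0.61 ± 0.33, limma adjusted p = 0.18), and without that library it did (0.92, adjusted p = 0.0482). Aars2, for alanine (-0.64 ± 0.25, adjusted p = 0.0806), and Ears2, for glutamate (-0.51 ± 0.19, adjusted p = 0.0626), missed the threshold on the low side, and Aars2 passed without untreated library 1 (-0.81, adjusted p = 0.0394). Hars2, Cars2, Rars2, Iars2 and Lars2 were at -0.16, -0.16, -0.06, -0.04 and 0.01. Hars and Hars2 lie head to head on chromosome 18 and share 198 annotated bases at their starts, away from the ends that the kit reads.

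The cytosolic and mitochondrial genes for the same amino acid were then set against each other, by the log2 ratio of the 2 genes within each library, in which a constant scaling factor per library cancels but a level-dependent adjustment such as quantile normalization does not. There were 18 such pairs, with Eprs in 2 of them (against Ears2 and Pars2) and Fars2 in 2 (against Farsa and Farsb). The ratio of the cytosolic to the mitochondrial gene was higher with panobinostat in 13 pairs and lower in 5, with a median change of 0.516 on the log2 scale. In 14 pairs the treated and untreated ratios did not overlap, 12 higher and 2 lower. The share of non-overlapping ratios among other pairs of genes was not computed, and single tested genes did not overlap in 51.4% of cases. Each of these 14 gave p = 0.10 in a two-sided exact permutation test over the 6 libraries, the smallest p that 3 against 3 allows, or 0.129 adjusted over the 18 pairs, so no pair could pass.

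The widest separation was for tryptophan, where Wars2 had only 13 to 15 estimated reads in treated libraries. The log2 ratio of Wars to Wars2 was 3.24, 3.73 and 3.91 in treated and 2.12, 1.48 and 1.97 in untreated libraries, a change of 1.77. For serine, the log2 ratio of Sars to Sars2 was 4.73, 5.86 and 5.28 in treated and 3.65, 3.60 and 3.89 in untreated libraries, a change of 1.58, with Sars itself at -0.07. Sars2 had 13 to 28 estimated reads in treated libraries. For threonine, the log2 ratio of Tars to Tars2 was 3.55, 3.25 and 3.47 in treated and 2.45, 2.13 and 2.19 in untreated libraries, a change of 1.17. Tryptophan and threonine were the amino acids whose cytosolic gene rose while the mitochondrial gene fell, though the Wars2 and Tars2 calls were lost with single libraries left out. Methionine went the other way: the log2 ratio of Mars to Mars2 was 2.73, 2.70 and 2.70 in treated and 3.54, 3.61 and 3.92 in untreated libraries, a change of -0.98. The pairs for histidine and cysteine hardly differed, with changes of -0.0052 and -0.048 and overlapping groups.

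**Figure D3:**
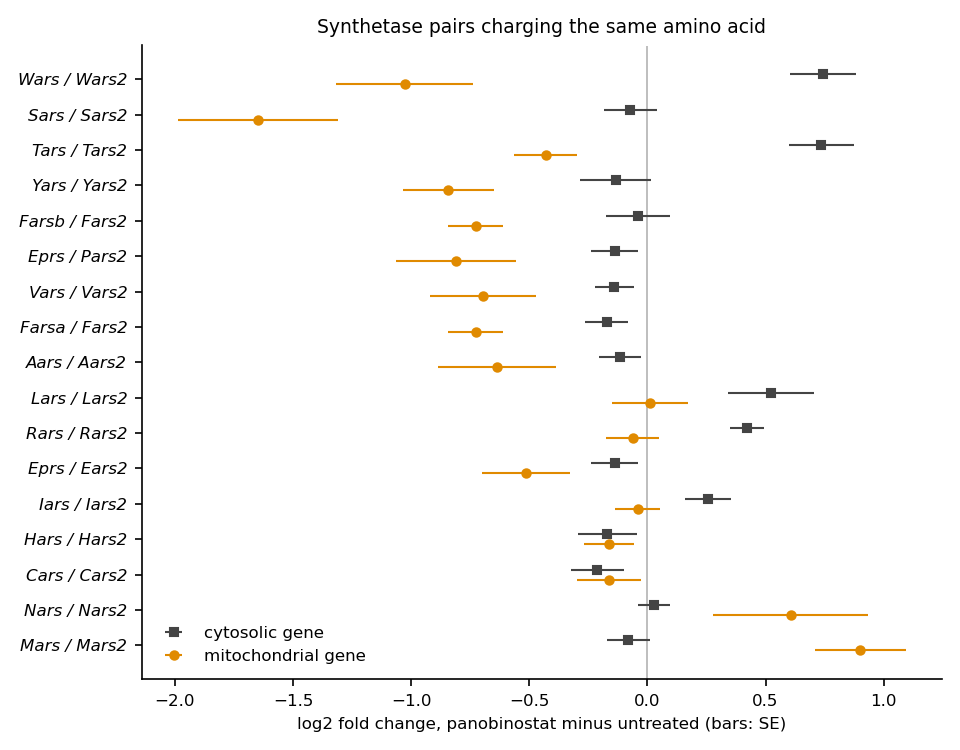
Log2 fold change (panobinostat minus untreated, x axis) of the cytosolic gene (squares) and the mitochondrial gene (circles) for 17 of the 18 pairs, with bars for the standard error from limma on 3 libraries a group. Circles lie left of squares in 13 pairs, most widely for Wars and Wars2, and right of them for Mars and Mars2, Nars and Nars2, and barely for Cars and Cars2 and for Hars and Hars2.

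Features that the choice of genes did not use were compared as descriptions. Synthetases fall into class I and class II by the fold of their catalytic domain. With Eprs, which has a domain of each, left aside, class I gave 3 rises and 3 falls of 18 genes (median log2 fold change -0.072) and class II 1 rise and 5 falls of 18 (median -0.166). In each class 33.3% were called, below the 38.3% of all tested genes. The falls were 16.7% and 27.8%, beside 19.0%. Within the mitochondrial genes class I gave 1 rise and 3 falls of 9 and class II 0 rises and 4 falls of 8. The synthetases of the cytosolic multisynthetase complex (Dars, Eprs, Iars, Kars, Lars, Mars, Qars and Rars, a set added after values were seen) gave 1 rise and 1 fall of 8, and the other cytosolic genes 2 rises and 0 falls of 12. That is 25.0% and 16.7% called, beside 47.2% of tested genes within the level range of the cytosolic synthetases. Of the scaffold genes of that complex, Aimp2 fell (-0.57 ± 0.12, adjusted p = 0.00754), and Aimp1 (0.02 ± 0.09) and Eef1e1 (-0.03 ± 0.16) did not pass. The 6 members with the ATF4 element did not move together: Tars rose, and log2 fold changes of the others were 0.26 for Iars, -0.12 for Aars, -0.13 for Yars, -0.17 for Gars and -0.34 for Asns.

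Other genes of tRNA charging gave 2 rises and 4 falls of 12 measured. Of all tested genes 38.3% were called, 19.2% upward and 19.0% downward. The 2 rises were Sepsecs (0.67 ± 0.14, adjusted p = 0.00733) and Xpot (0.38 ± 0.12, adjusted p = 0.0336). Tarsl2, a further threonyl-tRNA synthetase gene whose name the rule does not match, fell from 3.40, 3.40 and 3.23 log2 CPM to 2.30, 2.16 and 2.29 log2 CPM (log2 fold change -1.09 ± 0.16, limma adjusted p = 0.00196). Tars thus rose while both of its relatives fell, though the Tars2 call was lost with any single library left out. Qrsl1 (-0.81 ± 0.12) and Gatb (-1.06 ± 0.19), subunits of the amidotransferase that turns mitochondrial glutamate-charged tRNA into its glutamine form, fell as well (adjusted p = 0.00196 and 0.00474). The third subunit gene, Gatc, stood at -0.16 ± 0.20 (adjusted p = 0.564). Prorsd1, a gene related to prolyl-tRNA editing domains, fell (-0.67 ± 0.11, adjusted p = 0.00288).

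Upstream of ATF4, a list of genes for eIF2, its kinases and phosphatase subunits, its exchange factor eIF2B and other regulators gave 8 rises and 3 falls of 20 measured, or 55.0% called. That is 40.0% upward and 15.0% downward, beside 19.2% and 19.0% of all tested genes (38.3% called). Ppp1r15a, which encodes GADD34, the stress-induced subunit that brings a phosphatase to eIF2 and is itself an ATF4 target in many cells, rose from 4.77, 4.18 and 4.52 log2 CPM to 5.59, 5.55 and 5.67 log2 CPM (log2 fold change 1.11 ± 0.15, limma adjusted p = 0.00173). The kinase genes Eif2ak3, for PERK (0.88 ± 0.14, adjusted p = 0.00254), Eif2ak4, for GCN2 (0.81 ± 0.12, adjusted p = 0.00254), and Eif2ak1, for HRI (0.41 ± 0.11, adjusted p = 0.0237), rose, and Eif2ak2, for PKR, was at -0.13 ± 0.15 (adjusted p = 0.516). The Eif2ak1 call was lost without treated library 1 (0.43) or 2 (0.33) or untreated library 2 (0.38). The eIF2 subunit genes Eif2s1 (0.42 ± 0.09) and Eif2s3x (0.54 ± 0.08) rose too, and Eif2s2 (-0.20 ± 0.08) did not pass. Of the eIF2B genes, Eif2b1 (0.49 ± 0.14) and Eif2b2 (0.40 ± 0.11) rose and Eif2b5 (-0.33 ± 0.09) fell. Eif2b3 and Eif2b4 did not pass. Oma1 (-0.87 ± 0.16, adjusted p = 0.00546) and 0610009O20Rik, an older symbol of Dele1 (-1.49 ± 0.30, adjusted p = 0.00713), fell. Their products carry stress signals from mitochondria to HRI.

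Other ATF4 target genes went both ways, with 7 rises and 10 falls of 28 measured (60.7% called, median log2 fold change -0.182). That is 25.0% upward and 35.7% downward, beside 19.2% and 19.0% of all tested genes (38.3% called, median -0.005). Jdp2, a bZIP repressor gene, fell from 4.68, 5.17 and 4.97 log2 CPM to 2.77, 2.91 and 2.83 log2 CPM (log2 fold change -2.11 ± 0.15, limma adjusted p = 0.00024). Slc7a11, for the cystine transporter, fell from 5.10, 4.85 and 5.18 log2 CPM to 2.94, 3.09 and 2.85 log2 CPM (log2 fold change -2.08 ± 0.14, limma adjusted p = 0.0002). Slc7a5, for the large neutral amino acid transporter LAT1, rose from 4.76, 4.59 and 4.50 log2 CPM to 5.61, 5.68 and 5.96 log2 CPM (log2 fold change 1.13 ± 0.13, limma adjusted p = 0.000803), and so did Lonp1, for a mitochondrial protease (0.82 ± 0.10, adjusted p = 0.000938). Of the 28 target genes 23 had a promoter in the table and 9 held TGATGNAA (39.1%). The share was 4.51% of all genes in the table and 2.63% of the tested genes with a promoter. Among relatives of ATF4 and its partners 3 rose and 2 fell of 11 measured, or 45.5% called beside 38.3% of all tested genes. Atf6 (0.92 ± 0.12), Creb3 (0.84 ± 0.12) and Atf2 (0.53 ± 0.14) rose, and Crem (-1.01 ± 0.18) and Atf1 (-0.89 ± 0.19) fell. The Atf2 call was lost without treated library 1 (0.47) or 3 (0.54) or untreated library 3 (0.56).

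Close relatives of ATF4 target and partner genes, transcription factors among them, were measured as well. Of 9 such paralogues 1 rose and 0 fell, or 11.1% called beside 38.3% of all tested genes. Shmt2, for a mitochondrial enzyme of serine use, was at -0.17 ± 0.10 (adjusted p = 0.205). The Sesn2 relatives Sesn3 (0.35 ± 0.12, adjusted p = 0.0537) and Sesn1 (0.59 ± 0.29, adjusted p = 0.142) did not pass, though Sesn3 passed without untreated library 2 (0.44, adjusted p = 0.034). Genes of amino acid sensing by mTORC1, the pathway that sestrins restrain, gave 9 rises and 2 falls of 17 measured (64.7% called, median log2 fold change 0.591). All tested genes gave 38.3% called and a median of -0.005. The Rag GTPase genes Rragd (2.18 ± 0.17), Rraga (1.17 ± 0.14) and Rragc (0.85 ± 0.11) rose, and Mios, for a subunit of the GATOR2 complex that sestrins bind, fell (-1.34 ± 0.14). Other genes of that complex went both ways: Wdr24 (1.02 ± 0.21) and Wdr59 (0.65 ± 0.12) rose, and Seh1l (-0.59 ± 0.14) fell. Sec13 (0.50 ± 0.19) did not pass.

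**Figure D4:**
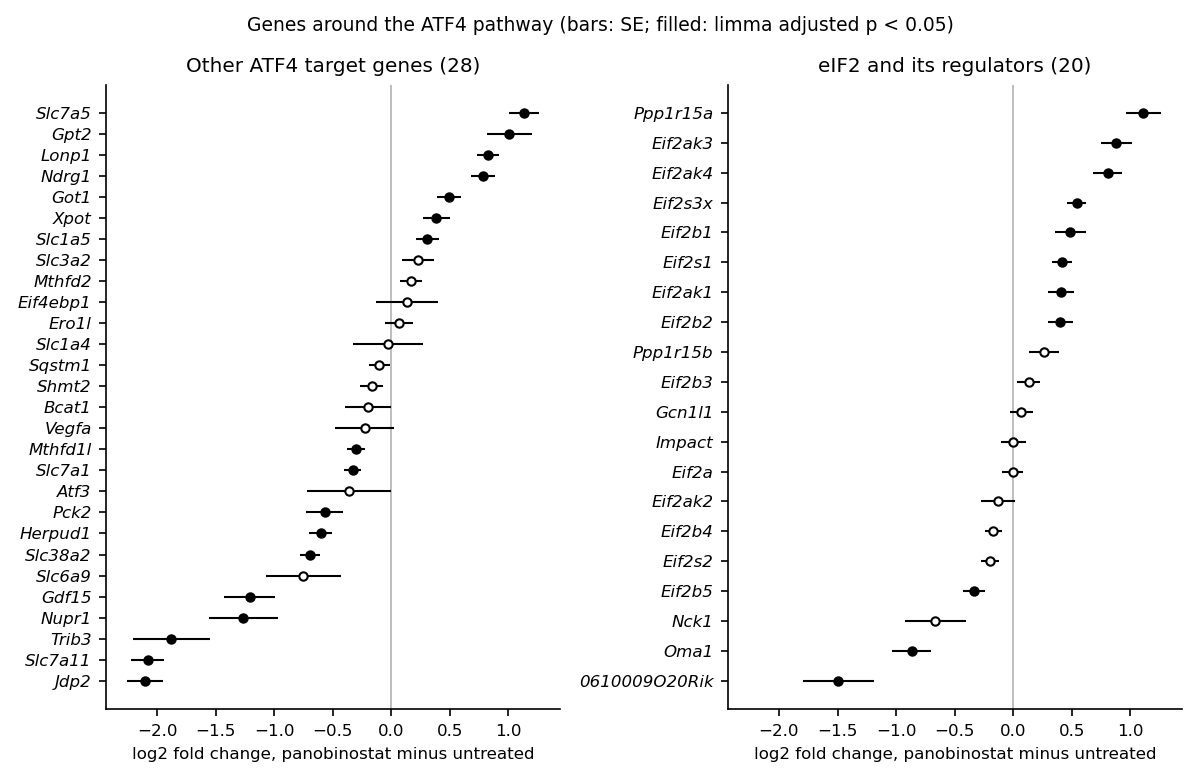
Log2 fold change (panobinostat minus untreated, x axis) with its standard error for 28 other ATF4 target genes (left) and 20 genes of eIF2 and its regulators (right); filled points have limma adjusted p below 0.05, on 3 libraries a group. Targets spread from -2.11 (Jdp2) to 1.13 (Slc7a5), while on the right 8 of the 11 filled points, led by Ppp1r15a, lie above zero. Of all tested genes 19.2% were called upward and 19.0% downward.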

How the data were processed

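Expression was read from 1 deposited file, which holds log2 values from the authors for 13185 gene symbols in 6 libraries. The submitters' processing notes name limma, featureCounts (Subread 1.5.0), HISAT2 2.1.0, cutadapt 1.9 and the build mm10. Annotation, strand setting and filters are not given in the sources used here. That the deposited log2 values are CPM made alike by quantile normalization was inferred: converted back to linear values, libraries totalled 994114 to 994182. Some genes and a sequence window are counted but not reported here. In 19 rows a date stood in place of the symbol. Columns were matched to samples by treatment and by the number after S in the titles.

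Rows with a mean log2 below 0 were left out (631), and the other 12554 were tested with limma 3.58.1 (lmFit, eBayes with trend, Benjamini-Hochberg over all tested genes) in R 4.3.3, with no pseudocount. Positions came from GENCODE M21. Python 3.11.15 with pandas 2.3.3 handled the tables, and matplotlib 3.10.9 drew the figures. Reads per CPM were estimated from the CPM reached after 200 steps between distinct low values, each step taken as 1 read. The limma fit and this estimate were tested on simulated data. Alternatives were the filter, the spread model, sample weights, scaling, a pseudocount of 1, the threshold, single libraries left out and a replicate block. Members and lists were chosen with earlier results of these data known, so their directions are no independent evidence. Values by library are given for Atf4, Atf5, Ddit3, Asns and called members, other members by log2 fold change, and up to 4 genes by smallest adjusted p from each other list. Other values and genes named were picked after they were seen.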

Additional observations from a re-analysis of the deposited data

How the results depend on the processing

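With the libraries centred on their median or on a trimmed mean, all 49 members kept their direction and call, as they did with log2(linear value + 1), with the robust fit and with no filter. The median log2 fold change of all genes was -0.00592 with median centring, -0.00587 with trimmed mean centring and -0.00524 as deposited. Of the 17 called members 11 kept the call with any library left out, 9 in every setting tried, and 0 changed direction. At a threshold of 0.01, 1240 genes rose and 1273 fell, and counts (rise, fall) were 1 and 2 for ATF4 and its targets, 3 and 0 for cytosolic and 1 and 2 for mitochondrial synthetases. With sample weights, 3089 genes rose and 3018 fell, against 2416 and 2390 without them. In that fit 5 ATF4 members and 3 cytosolic synthetases fell and 2 mitochondrial ones rose. With 1 library left out, between 1587 and 2664 genes rose and 1636 and 2562 fell, 0 to 4 cytosolic synthetases fell (4 without untreated library 1), 1 to 2 mitochondrial ones rose (2 without treated library 1) and 3 to 7 fell. With the library number as a replicate block, 2079 genes rose and 2069 fell, and 4 mitochondrial synthetases fell. Wars2, Pars2 and Tars2 lost their calls there, and Lars passed. The numbers do not pair the libraries (correlations of deviations -0.0444, 0.104 and -0.0108), so the block stands only as an alternative. Genes near zero changed sign without single libraries, with log2 fold changes of -0.049 to 0.076 for Cebpg, -0.16 to 0.0035 for Ddit3, -0.196 to 0.061 for Farsb, -0.094 to 0.025 for Iars2, -0.033 to 0.059 for Kars, -0.13 to 0.14 for Lars2, -0.00035 to 0.048 for Nars, -0.0091 to 0.16 for Qars, -0.15 to 0.0097 for Sars, -0.027 to 0.088 for Aimp1 and -0.101 to 0.035 for Eef1e1. So did the change of the log2 ratio of Cars to Cars2 (-0.13 to 0.027) and of Hars to Hars2 (-0.073 to 0.062). Mars was at 0.0019 with sample weights. Depth limits the lowest genes: at about 13 reads, as in Wars2 and Sars2, counting error alone is large.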
